A study of Mus musculus with 10 samples.

Results

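The genes described here encode the subunits of the mitochondrial oxidative phosphorylation machinery, with the assembly factors that share their gene symbols. They were chosen by symbol from the deposited expression table, taking every row whose symbol begins with Nduf, Sdha, Sdhb, Sdhc, Sdhd, Uqcr, Cox4i, Cox5, Cox6, Cox7, Cox8 or Atp5 and which reached 1 FPKM (fragments per kilobase of transcript, scaled to the mapped fragments) in at least 1 fraction. Of 32361 rows, 96 had such a symbol, and 92 of these were among the 13595 rows that reached 1 FPKM. By the encoded protein, 36 belonged to complex I, 4 to complex II, 8 to complex III, 17 to complex IV and 14 to complex V, which leaves 13 assembly factors and other proteins. The prefixes Sdha and Nduf also take in assembly factors, and Ndufa4 and its relative Ndufa4l2 were counted with complex IV, where the NDUFA4 protein resides. The other 4 genes, Atp5g2, Cox6a2, Cox8b and Cox8c, stayed under 1 FPKM in every fraction. The highest value was 0.170 FPKM for Atp5g2, 0.446 for Cox6a2 and 0.789 for Cox8c, and Cox8b was listed at 0 in every fraction.

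The study sorted mouse embryonic stem cells of the E14Tg2a.4 line into fractions by reporter and sequenced their RNA. Zscan4-positive and Zscan4-negative cells came from a line with a transposon-inserted (piggyBac) reporter under part of the Zscan4c promoter. A second line, with reporters knocked in at both Esrrb and Tbx3, gave Esrrb+/Tbx3+ (double-positive), Esrrb+/Tbx3- (single-positive) and Esrrb-/Tbx3- (double-negative) cells. Each of the 5 fractions had 2 libraries from sorts on different days, and the table holds 1 merged FPKM value per fraction. There is therefore no SD and no test in what follows, and a difference is called only by its size, at 1.5-fold or 2-fold on the log2(FPKM + 1) scale. A sorted fraction reports reporter state, and the reporter fragment need not follow the Zscan4c gene in every cell.

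Oxidative phosphorylation passes electrons from NADH through complex I, or from succinate through complex II, to complex III and on to complex IV, where oxygen is reduced. Complexes I, III and IV pump protons out of the mitochondrial matrix, and complex V, the ATP synthase, lets them back in to make ATP. Most subunits are encoded in the nucleus, and a small set, none of complex II, in the mitochondrial genome. Mouse embryonic stem cells in the naive state use both respiration and glycolysis, whereas primed cells of the later epiblast rely mainly on glycolysis. Esrrb, a pluripotency factor, belongs to the estrogen-related receptor family, whose members Esrra and Esrrg drive respiratory genes in heart and muscle.

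Markers of the labelled cells were present. The 8 embryonic stem cell markers summed to between 4421 and 6894 FPKM in the 5 fractions, and the 8 genes of the 2-cell-like state to 541 FPKM in Zscan4-positive cells, against 0.723 FPKM in Zscan4-negative cells. Markers of other cell types were higher in the single-positive and double-negative columns. Across 13 fibroblast markers the sum was 332 FPKM in Zscan4-positive, 312 in Zscan4-negative, 370 in double-positive, 1997 in single-positive and 2646 in double-negative cells. The defining marker Lum was listed at 0 in both Zscan4 fractions, and no fibroblast marker was at 0 in the other 3 fractions. Lum was at 0.144 FPKM in double-positive, 0.0320 in single-positive and 0.0145 in double-negative cells. Dcn was at 0.217 FPKM or less in every fraction, so Lum and Dcn were near 0 throughout and did not follow the sum. Embryonic stem cells express some of these genes, and Fn1 was at 173 FPKM or more in every fraction. Across 10 T-lineage markers, none of them at 0 in any fraction, the sum was 399 FPKM in single-positive and 560 in double-negative cells, against at most 34.5 in the other 3 fractions. The share of these markers in the differences below was not tested except where a value is given, and in bulk RNA fewer cells of a type and less RNA per cell cannot be told apart.

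Over all members, complex V genes had the highest median level and the assembly factors the lowest. Without the minor isoforms Cox4i2, Cox6b2, Cox7a1, Cox7b2 and Ndufa4l2, complex IV had the highest, at 338 FPKM in Zscan4-positive, 362 in Zscan4-negative, 381 in double-positive, 345 in single-positive and 289 in double-negative cells. The median over the 14 complex V genes was 233 FPKM in Zscan4-positive, 286 in Zscan4-negative, 272 in double-positive, 266 in single-positive and 250 in double-negative cells. Medians for complex III lay between 129 FPKM in double-negative cells and 158 FPKM in double-positive and Zscan4-positive cells. Complexes I and II were close to 100 FPKM, from 94.6 to 101 FPKM for complex I and from 88.5 to 102 FPKM for complex II over the 5 fractions. In fold terms complex IV covered the widest range, because ubiquitous subunits such as Cox4i1 stood at 601 FPKM or more and tissue-restricted isoforms such as Cox4i2 below 3 FPKM. In FPKM complex V covered a wider one, for example from 10.9 to 1740 FPKM in Zscan4-positive cells. The assembly group had medians of 11.9 to 14.6 FPKM. Together the 92 genes took 2.77% of all FPKM in Zscan4-positive, 2.93% in Zscan4-negative, 2.86% in double-positive, 2.80% in single-positive and 2.64% in double-negative cells.

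**Figure D1:**
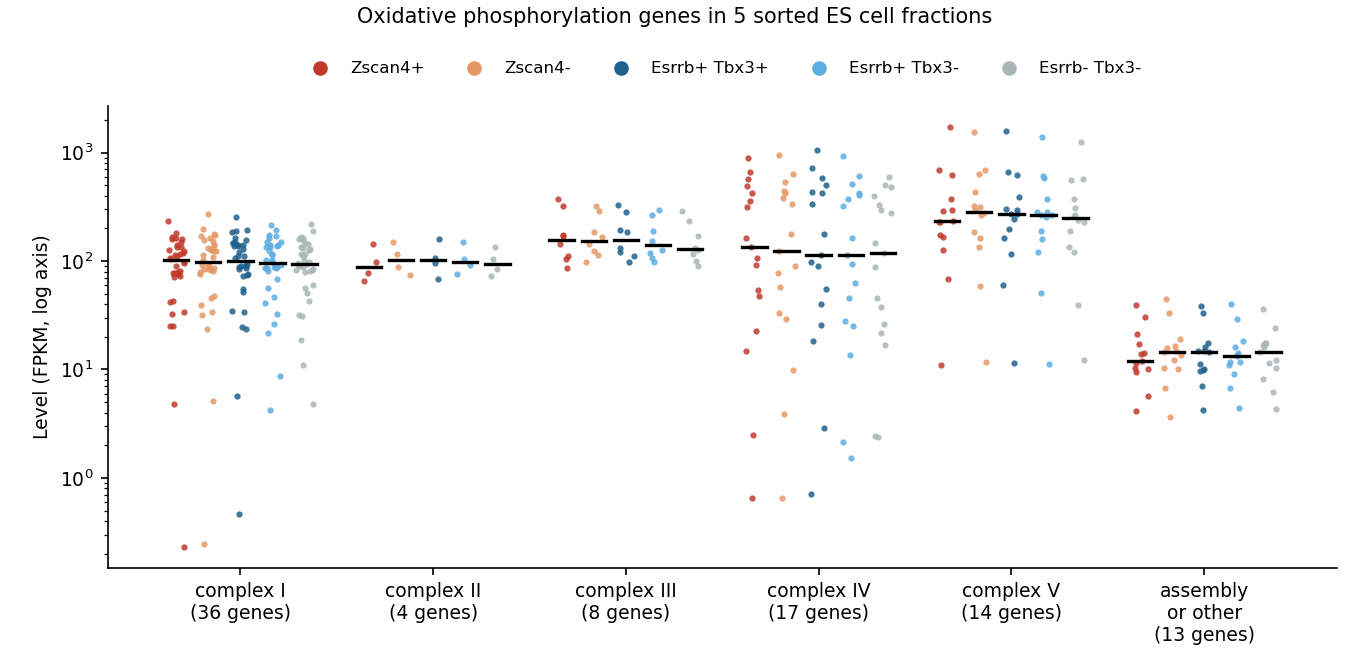
Level of each of the 92 genes (points, FPKM on a log axis) in the 5 sorted fractions, grouped by complex, with the median of each group as a bar. Complex V medians stand at 233 to 286 FPKM and the assembly group at 11.9 to 14.6 FPKM, and Ndufs5 lies far below the rest of complex I in 3 fractions.

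Most of these genes varied little. The highest over the lowest of the 5 values had a median of 1.23 over the 92 genes, against 1.55 over the 13392 rows with no value of 0 and 1.35 over the 2481 of those rows that reached 50 FPKM. Of the 92 genes, 81 stayed under 1.5, against 6236 of the 13392 rows and 1664 of the 2481. A ratio of 2 or more was reached by 4373 of the 13392 rows, by 383 of the 2481 and by 6 of the 92 genes: Ndufs5, Cox4i2, Cox6b2, Cox7a1, Cox7b2 and Ndufa4l2. Apart from Ndufs5 these are all complex IV isoforms of restricted tissue use or, in Ndufa4l2, a hypoxia-induced relative of Ndufa4.

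In the Zscan4 sort, 1 gene of 92 was 1.5-fold higher in Zscan4-positive cells, where 7.61% of all rows were, and none was 1.5-fold lower, where 3.59% of all rows were. The higher gene was Cox6b2. The median difference over the 92 genes was -0.09 on the log2 scale, against -0.01 over all rows. Of the 92 differences, 28 were above 0 (48.2% of all rows and 44.1% of the rows that reached 50 FPKM). No gene passed 2-fold in either direction, which 3.46% of all rows did on the higher side and 0.875% on the lower side. The Esrrb step, single-positive against double-negative, gave 3 genes that were 1.5-fold higher (5.1% of all rows) and 1 that was 1.5-fold lower (5.49% of all rows). None passed 2-fold, against 1.82% of all rows on the higher and 1.43% on the lower side. Of the 92 differences, 64, or 69.6%, were above 0 (46.6% of all rows, but 67.5% of the rows that reached 50 FPKM). The median over the 92 genes was 0.05, and -0.0021 with totals equal outside a set of rows shared by the single-positive and double-negative columns, described below. The higher genes were Cox6b2, Cox7a1 and Cox4i1, and the lower was Ndufa4l2. At the Tbx3 step, double-positive against single-positive, 1 gene was higher (1.68% of all rows) and 2, Ndufs5 and Cox4i2, were lower (12.4% of all rows). Both lower genes reached 1 FPKM only in single-positive and double-negative cells, so the filter kept them only through fractions where they were high. Ndufs5 was also 2-fold lower (6.94% of all rows), none was 2-fold higher (0.346% of all rows), and 66 of 92 differences, or 71.7%, were above 0 (50.8% of all rows, but 73.8% of the rows that reached 50 FPKM). The median over the 92 genes at the Tbx3 step was 0.07 as deposited and -0.01 with equal FPKM totals. The higher gene at the Tbx3 step was Cox7b2, a testis-enriched isoform of Cox7b, at 2.47 FPKM in Zscan4-positive, 3.87 in Zscan4-negative, 2.87 in double-positive, 1.51 in single-positive and 2.36 in double-negative cells.

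Double-positive cells had 5 of the 92 genes at least 1.5-fold above double-negative cells, namely Cox6b2, Cox7a1, Cox4i1, Cox5a and Atp5g1, beside 9.92% of all rows. Ndufs5 and Cox4i2 were at least 1.5-fold lower, beside 20.5% of all rows. As at the Tbx3 step, the 1 FPKM filter kept both only through fractions where they were high. Past 2-fold were Cox6b2 and Cox7a1 on the higher side (3.81% of all rows) and Ndufs5 on the lower side (12.2% of all rows). Between these fractions 64 of 92 differences, or 69.6%, were above 0 (48.5% of all rows, but 71.9% of the rows that reached 50 FPKM). Small differences in 1 direction were common: 53 of 92 genes (57.6%) were ordered double-positive over single-positive over double-negative, against 34.8% of all rows but 59.2% of the rows that reached 50 FPKM. The reverse order held for 15 of 92 (16.3%), against 37.2% of all rows but 17.6% of the rows that reached 50 FPKM. The count of ordered genes was 29 after the columns were brought to equal FPKM totals. As deposited, the order double-positive over single-positive over double-negative held for 17 of 36 genes in complex I and 3 of 4 in complex II. It held for 7 of 8 in complex III, 12 of 17 in complex IV, 11 of 14 in complex V and 3 of 13 in the assembly group.

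The median difference between double-positive and double-negative cells was 0.11 for complex I, 0.13 for complex II, 0.13 for complex III, 0.27 for complex IV and 0.17 for complex V, and -0.02 for the assembly group, on the log2 scale. Over all rows it was -0.02 as deposited and -0.12 after scaling to equal FPKM totals, and the complex I median then turned to -0.0088 while complexes IV and V kept positive medians of 0.14 and 0.053. Relative to the median of all rows, the deposited values put complex IV at 0.28, complex V at 0.19, complex III at 0.15, complex II at 0.14 and complex I at 0.13. The rows that reached 50 FPKM, of any function, stood at 0.21 on that measure, so that complex IV alone lay above them and the others below. Complex IV stood at 0.28 without its minor isoforms. Without Cox4i1, Cox5a, Cox6a1, Cox6b2 and Cox7a1, which had large differences, it stood at 0.19, below those rows.

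**Figure D2:**
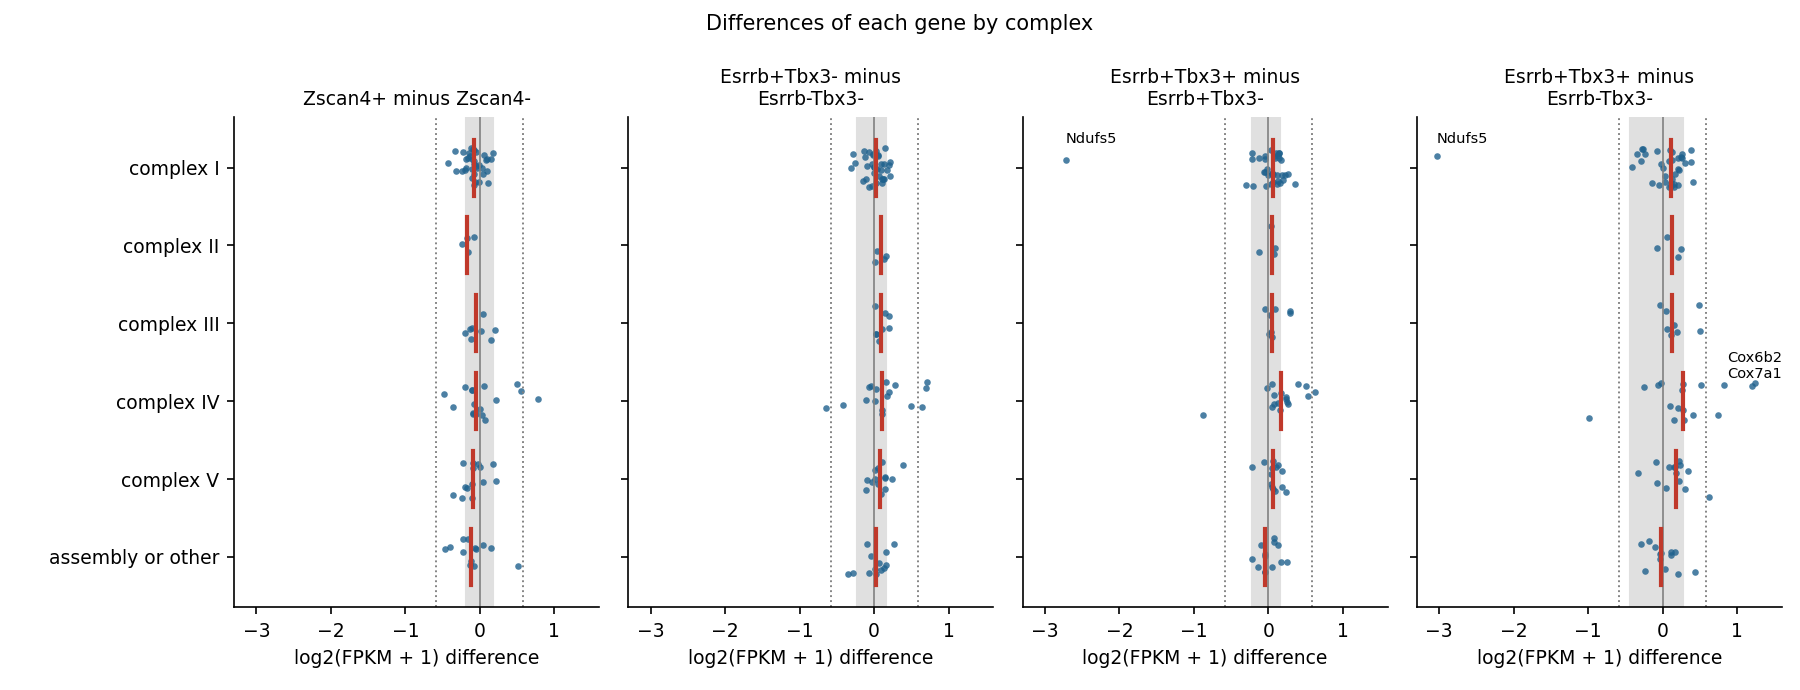
Difference of log2(FPKM + 1) for each gene (points) by complex in the 4 comparisons, with the median of each group in red, the middle 50% of all rows in grey and 1.5-fold as dotted lines. Complex IV holds most genes beyond the dotted lines, and its double-positive against double-negative median of 0.27 is the highest of the complexes, with a range of 0.12 to 0.35 over the scalings tried, where the medians of complexes I to III reach below 0.

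Complex I, the NADH dehydrogenase, was represented by 36 nuclear genes. Its 7 core subunits, which carry the flavin and iron-sulfur clusters or form the quinone site, included Ndufs3, the lowest of them in double-positive cells at 33.9 FPKM. As deposited, all 7 were higher in double-positive cells than in double-negative cells (a direction not kept for the complex I median under equal FPKM totals), with differences of 0.08 (Ndufv2) to 0.40 (Ndufv1) and a median of 0.13 on the log2 scale. That direction was held by 48.5% of all rows and 71.9% of the rows that reached 50 FPKM. Ndufv1, which binds NADH and the flavin, was at 134 FPKM in Zscan4-positive, 124 in Zscan4-negative, 137 in double-positive, 114 in single-positive and 103 in double-negative cells. Its highest value was in double-positive and its lowest in double-negative cells.

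The other complex I genes mostly stayed within a narrow band. Ndufa7, an accessory subunit, had the highest level in the complex, with 236 FPKM in Zscan4-positive, 272 in Zscan4-negative, 254 in double-positive, 217 in single-positive and 221 in double-negative cells. Ndufb2, an accessory subunit of the membrane arm, was lowest in the Zscan4-positive fraction at 113 FPKM, against 152 in Zscan4-negative cells (-0.43), with 136 in double-positive, 141 in single-positive and 128 in double-negative cells. Ndufab1, the mitochondrial acyl carrier protein, ran against the ordered genes, at 23.8 FPKM in double-positive, 26.1 in single-positive and 32.1 in double-negative cells (-0.41 between the ends). Ndufa2 did the same, at 75.7 FPKM in double-positive, 87.5 in single-positive and 96.0 in double-negative cells (-0.34). Ndufa3 was at 157 FPKM in double-positive, 194 in single-positive and 191 in double-negative cells (-0.31 at the Tbx3 step), and Ndufa12 at 34.9 FPKM in double-positive, 40.7 in single-positive and 43.0 in double-negative cells (-0.22 at that step). None of these differences reached 1.5-fold.

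Ndufs5, an accessory subunit that is needed for complex I assembly, was the exception. It was listed at 0.232 FPKM in Zscan4-positive, 0.245 in Zscan4-negative, 0.467 in double-positive, 8.69 in single-positive and 11.0 in double-negative cells. The 3 low fractions lie well under every other subunit of complex I, and the single-positive and double-negative columns stand apart from them. The difference was -3.03 between double-positive and double-negative cells and -2.72 at the Tbx3 step. Cox4i2, the hypoxia-responsive isoform of Cox4, had the same shape at 0.658 FPKM in Zscan4-positive, 0.654 in Zscan4-negative, 0.717 in double-positive, 2.15 in single-positive and 2.42 in double-negative cells.

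In both genes the single-positive and double-negative columns were the high ones, as they were for the summed fibroblast and T-lineage markers above. In all, 501 rows had at least 1 FPKM in double-negative cells and at most 0.1 of that level in double-positive cells and in both Zscan4 fractions, and Ndufs5 was the only subunit gene among them. These rows took 1.10% of FPKM in single-positive and 1.66% in double-negative cells, against at most 0.0420% in the other 3 fractions. The contrast between double-negative cells and those 3 fractions follows from how the rows were chosen. The choice did not use the single-positive column. Their single-positive to double-negative ratio had a median of 0.700 with 95% of rows between 0.473 and 0.872, and Ndufs5 stood at 0.791. Cox4i2 was not among these rows, as its double-positive level was 0.296 of its double-negative level. Its single-positive to double-negative ratio was 0.890, above that range. One pseudogene carries a near-identical copy of the Ndufs5 coding sequence, and reads shared with it can be split or dropped. What sets the difference in Ndufs5 was not tested.

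**Figure D3:**
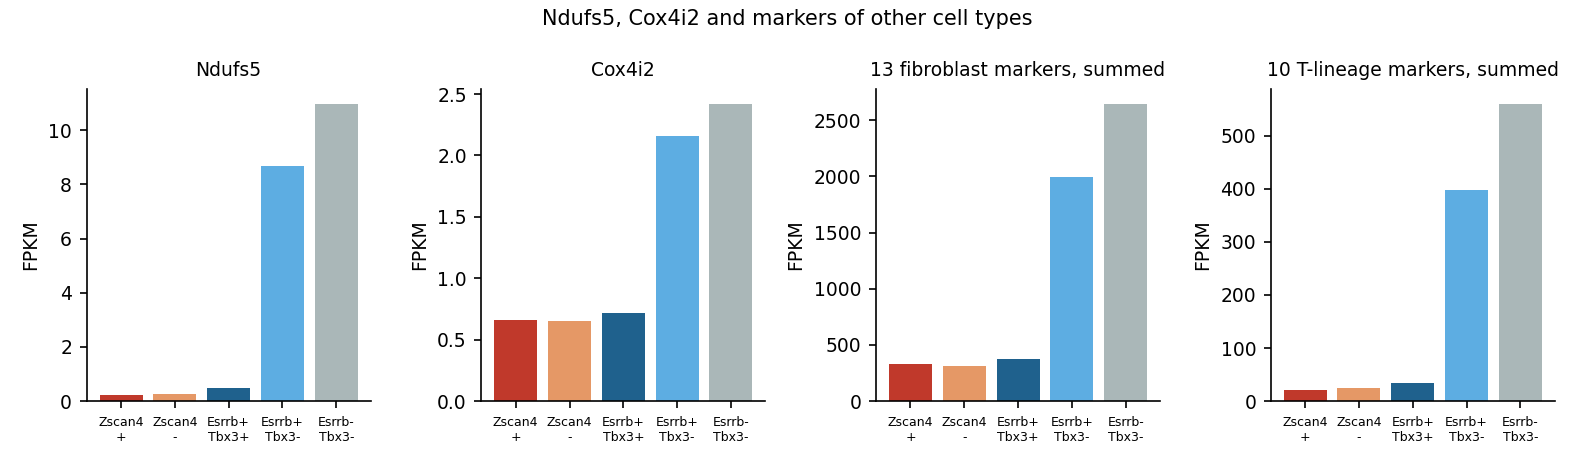
FPKM (bars, 1 merged value per fraction) of Ndufs5, Cox4i2 and the summed 13 fibroblast and 10 T-lineage markers. All 4 panels are high in the single-positive and double-negative fractions: Ndufs5 at 8.69 and 11.0 FPKM, against at most 0.467 FPKM elsewhere.

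Complex II, the succinate dehydrogenase that also serves the citric acid cycle, is encoded entirely in the nucleus. Its flavoprotein Sdha was at 142 FPKM in Zscan4-positive, 151 in Zscan4-negative, 159 in double-positive, 150 in single-positive and 135 in double-negative cells. Sdhb, the iron-sulfur subunit, was at 78.3 FPKM in Zscan4-positive, 87.8 in Zscan4-negative, 96.9 in double-positive, 92.2 in single-positive and 84.2 in double-negative cells. The membrane anchors Sdhc and Sdhd ranged from 65.6 to 75.4 FPKM for Sdhc and from 98.8 to 117 FPKM for Sdhd. All 4 genes were lower in Zscan4-positive than in Zscan4-negative cells, as were 7008 of all 13595 rows. Their log2 differences were -0.09 to -0.24, and none approached 1.5-fold.

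Complex III, the cytochrome bc1 complex, included the core protein Uqcrc1 at 171 FPKM in Zscan4-positive, 166 in Zscan4-negative, 185 in double-positive, 152 in single-positive and 132 in double-negative cells. The difference between double-positive and double-negative cells was 0.49, and Uqcr10, a small subunit, matched it at 327 FPKM in double-positive and 232 in double-negative cells (0.49). Uqcrc2, the partner core protein, stayed between 112 and 124 FPKM, and the Rieske iron-sulfur protein Uqcrfs1 between 101 and 114 FPKM. Uqcrq was the highest gene of the complex in Zscan4-positive cells, at 371 FPKM against 322 in Zscan4-negative cells. Between double-positive and double-negative cells Uqcrc1 differed by 0.49 and Uqcrc2 by 0.04, although both are core proteins of the same complex.

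Complex IV, cytochrome c oxidase, held most of the larger differences. Cox4i1, the ubiquitous regulatory subunit on mouse chromosome 8, was at 896 FPKM in Zscan4-positive, 952 in Zscan4-negative, 1063 in double-positive, 942 in single-positive and 601 in double-negative cells. Cox5a, which joins Cox4i1 early in assembly, was at 495 FPKM in Zscan4-positive, 425 in Zscan4-negative, 499 in double-positive, 420 in single-positive and 299 in double-negative cells. In both genes the double-negative fraction was the lowest of the 5, and the largest step was the Esrrb step, at 0.65 for Cox4i1 and 0.49 for Cox5a. Between double-positive and double-negative cells the differences were 0.82 for Cox4i1 and 0.74 for Cox5a, and over the other scalings tried they stayed between 0.68 and 0.91 for Cox4i1 and between 0.59 and 0.82 for Cox5a. Cox5b, the zinc-binding subunit, did not share this, with 22.8 FPKM in Zscan4-positive, 29.5 in Zscan4-negative, 25.9 in double-positive, 25.1 in single-positive and 26.3 in double-negative cells.

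Of the complex IV genes, only Cox6b2 and Cox7a1 passed 2-fold between double-positive and double-negative cells, both isoforms best known from adult tissues. Cox6b2, the testis isoform of Cox6b, was at 134 FPKM in Zscan4-positive, 77.8 in Zscan4-negative, 90.1 in double-positive, 62.3 in single-positive and 37.7 in double-negative cells. Cox7a1, the heart and skeletal muscle isoform of Cox7a, was at 47.3 FPKM in Zscan4-positive, 33.1 in Zscan4-negative, 40.2 in double-positive, 28.0 in single-positive and 16.9 in double-negative cells. Both had the same order of fractions, with Zscan4-positive highest and double-negative lowest. The restricted isoforms Cox4i2 and Cox7b2 did not share it, with Cox4i2 highest in double-negative and Cox7b2 in Zscan4-negative cells. Cox6b2 differed by 0.78 in the Zscan4 sort and by 1.23 between double-positive and double-negative cells, and Cox7a1 by 0.50 and 1.20.

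Their ubiquitous counterparts moved less. Cox6b1 was at 360 FPKM in Zscan4-positive, 385 in Zscan4-negative, 436 in double-positive, 370 in single-positive and 330 in double-negative cells, so the testis isoform stayed below it in every fraction. Cox7a2 was at 107 FPKM in Zscan4-positive, 123 in Zscan4-negative, 113 in double-positive, 115 in single-positive and 118 in double-negative cells, and Cox7a2l, a supercomplex factor, lay between 87.4 and 97.1 FPKM. The ubiquitous liver-type isoform Cox6a1 was at 665 FPKM in Zscan4-positive, 639 in Zscan4-negative, 715 in double-positive, 610 in single-positive and 502 in double-negative cells, and the muscle isoform Cox6a2 did not reach 1 FPKM. Cox7b, the ubiquitous form, was at 165 FPKM in Zscan4-positive, 178 in Zscan4-negative, 178 in double-positive, 163 in single-positive and 145 in double-negative cells. Cox8a, the ubiquitous Cox8, spanned 484 to 578 FPKM, with Cox8b and Cox8c under 1 FPKM. Ndufa4 stayed between 399 and 446 FPKM, while Ndufa4l2 was at 15.0 FPKM in Zscan4-positive, 9.93 in Zscan4-negative, 18.2 in double-positive, 13.6 in single-positive and 21.8 in double-negative cells.

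**Figure D4:**
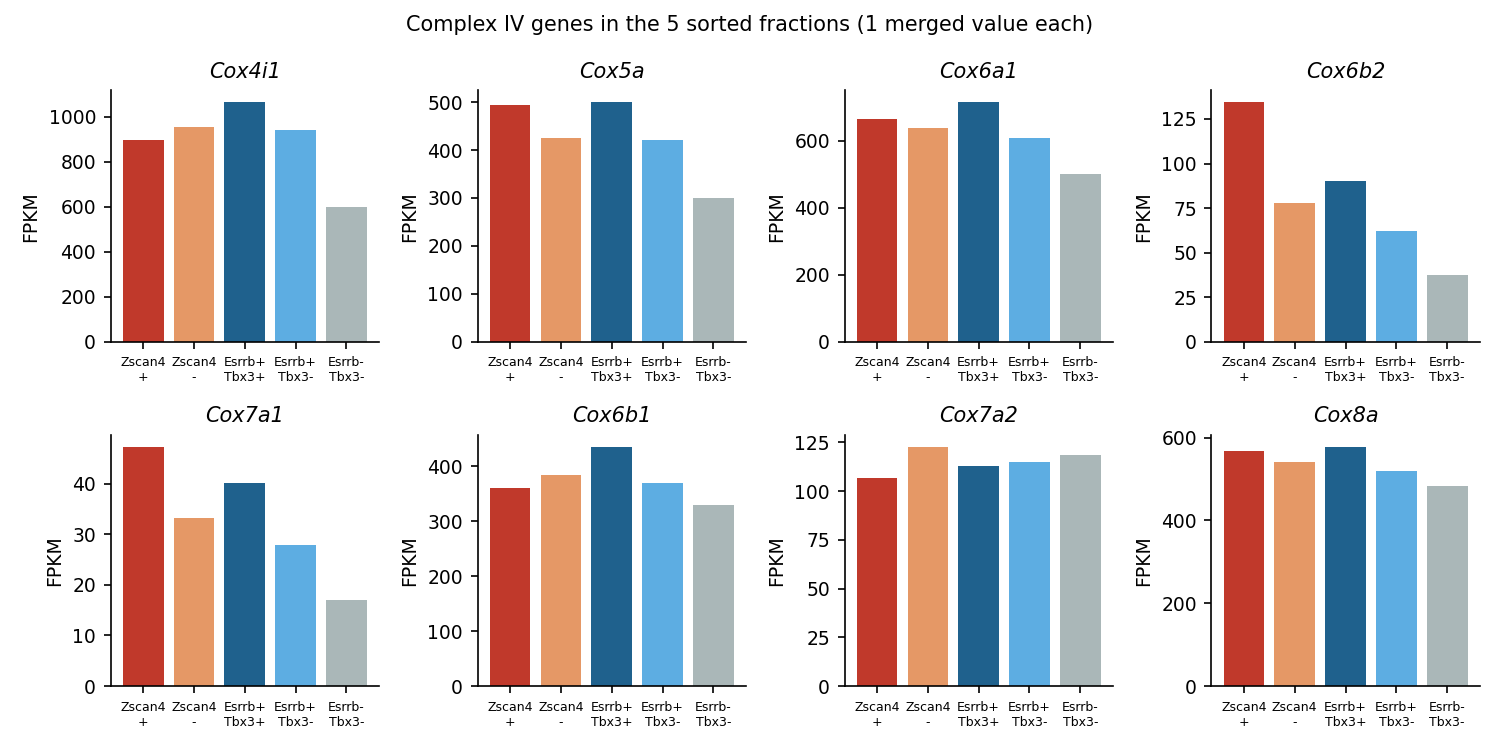
FPKM (bars, 1 merged value per fraction) of 8 complex IV genes, each panel with its own axis from 0. Cox4i1, Cox5a, Cox6a1, Cox6b2 and Cox7a1 are lowest in double-negative cells, while Cox7a2 spans only 107 to 123 FPKM.

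The summed complex IV level was 4366 FPKM in Zscan4-positive, 4330 in Zscan4-negative, 4674 in double-positive, 4138 in single-positive and 3398 in double-negative cells. Double-positive over double-negative, the sum ratio was 1.38 for complex IV, against 1.06 for complex I, 1.09 for complex II, 1.15 for complex III, 1.14 for complex V and 1.09 for all rows. Without Cox4i1, Cox5a, Cox6a1, Cox6b2 and Cox7a1 the complex IV ratio was 1.17. In the Zscan4 sort the complex IV ratio was 1.01.

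Promoters were examined because several complex IV genes shared an order of the Esrrb and Tbx3 fractions. RefSeq sequences of GRCm38.p6 were matched for 75 genes, each 300 bases long, from 250 bases before to 50 after the gene start. They are shown for 4 complex IV genes with double-positive over single-positive over double-negative levels, and for Atp5g3, which holds a match to the estrogen-related receptor motif. As deposited, 12 of 17 complex IV genes had that order, beside 34.8% of all rows and 59.2% of the rows that reached 50 FPKM. Cox6b2 lies at chr7:4753045-4753344 (minus strand), Cox7a1 at chr7:30183921-30184220 (plus), Cox5a at chr9:57520982-57521281 (plus), Cox6a1 at chr5:115348909-115349208 (minus) and Atp5g3 at chr2:73911277-73911576 (minus). Sequences run 5′ to 3′ on the gene's strand, and capitals mark motif matches on either strand.
Cox6b2: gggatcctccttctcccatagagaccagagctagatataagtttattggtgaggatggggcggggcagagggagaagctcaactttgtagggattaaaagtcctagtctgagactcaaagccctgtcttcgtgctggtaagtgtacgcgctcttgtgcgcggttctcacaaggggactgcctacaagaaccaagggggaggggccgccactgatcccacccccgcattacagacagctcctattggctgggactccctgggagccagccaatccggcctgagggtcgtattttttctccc
Cox7a1: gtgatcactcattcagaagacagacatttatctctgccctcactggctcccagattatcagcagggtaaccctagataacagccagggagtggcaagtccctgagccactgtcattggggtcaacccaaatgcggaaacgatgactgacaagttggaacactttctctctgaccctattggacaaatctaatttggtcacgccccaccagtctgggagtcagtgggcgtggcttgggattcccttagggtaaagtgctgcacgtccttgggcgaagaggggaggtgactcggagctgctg
Cox5a: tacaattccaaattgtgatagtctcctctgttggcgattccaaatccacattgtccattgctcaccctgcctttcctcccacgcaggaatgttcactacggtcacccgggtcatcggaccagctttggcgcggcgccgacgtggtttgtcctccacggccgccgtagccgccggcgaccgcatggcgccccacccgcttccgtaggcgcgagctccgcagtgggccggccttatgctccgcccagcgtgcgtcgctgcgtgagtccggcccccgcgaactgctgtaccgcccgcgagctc
Cox6a1: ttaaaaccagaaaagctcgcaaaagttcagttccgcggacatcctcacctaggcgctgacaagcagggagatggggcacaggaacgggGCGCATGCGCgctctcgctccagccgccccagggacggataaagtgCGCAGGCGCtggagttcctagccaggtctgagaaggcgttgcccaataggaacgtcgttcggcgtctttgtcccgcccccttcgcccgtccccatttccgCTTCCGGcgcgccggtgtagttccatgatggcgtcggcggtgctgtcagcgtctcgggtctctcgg
Atp5g3: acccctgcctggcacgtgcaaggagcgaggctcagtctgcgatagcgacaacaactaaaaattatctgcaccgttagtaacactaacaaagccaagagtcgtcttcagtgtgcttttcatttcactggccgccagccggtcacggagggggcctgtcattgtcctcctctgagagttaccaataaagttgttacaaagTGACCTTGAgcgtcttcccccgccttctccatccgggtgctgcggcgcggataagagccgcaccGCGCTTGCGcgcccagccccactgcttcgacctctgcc

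The motifs searched were GCGCNTGCG for NRF1, CCGGAAG for ETS factors such as GABPA, AAGATGGC for YY1 and TNAAGGTCA for the estrogen-related receptors, on both strands. An NRF1 match was in 26 of the 75 promoters (34.7%), against 9.68% of 17492 promoters of all genes. ETS matches were in 20 of 75 (26.7%), against 12.9%, and YY1 matches in 9 (12%), against 3.57%. The estrogen-related receptor motif was in 3, Atp5g3, Ndufb4 and Sdhd, or 4% against 1.19%. Cox6a1 held an ETS match and 2 stretches that match NRF1, of which the first matches on both strands by overlapping words, and Cox6b2, Cox7a1 and Cox5a held none of the 4 motifs in these windows. The median difference between double-positive and double-negative cells was 0.15 with an NRF1 match and 0.13 without, 0.11 with an ETS match and 0.15 without, 0.13 with a YY1 match and 0.14 without, and 0.16 with an estrogen-related receptor match and 0.13 without. A match describes the letters in the window and is not evidence of binding.

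Complex V, the ATP synthase, had the most abundant transcripts. Atp5b, the catalytic beta subunit, was at 1740 FPKM in Zscan4-positive, 1541 in Zscan4-negative, 1596 in double-positive, 1404 in single-positive and 1265 in double-negative cells, the highest of the 92 genes in every fraction. Its partner in the catalytic head, Atp5a1, was at 689 FPKM in Zscan4-positive, 687 in Zscan4-negative, 670 in double-positive, 616 in single-positive and 575 in double-negative cells. The epsilon subunit Atp5e went the other way, at 230 FPKM in Zscan4-positive, 295 in Zscan4-negative, 244 in double-positive, 285 in single-positive and 309 in double-negative cells. The gamma subunit Atp5c1, the central stalk, lay between 230 and 271 FPKM and the delta subunit Atp5d between 173 and 196 FPKM. Atp5e differed by -0.36 in the Zscan4 sort and -0.34 between double-positive and double-negative cells.

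Subunit c, which forms the rotating ring, is made from 3 genes that encode the same mature protein. Atp5g3 had the highest listed level, with 628 FPKM in Zscan4-positive, 639 in Zscan4-negative, 620 in double-positive, 578 in single-positive and 556 in double-negative cells. Atp5g1 was at 68.2 FPKM in Zscan4-positive, 58.8 in Zscan4-negative, 60.5 in double-positive, 51.3 in single-positive and 39.1 in double-negative cells, a difference of 0.62 between double-positive and double-negative cells that was 0.50 with equal FPKM totals, below 1.5-fold. Atp5g2 did not reach 1 FPKM. Atp5g2 has 2 near-identical pseudogenes and Atp5g1 has 1, so the listed levels of both are uncertain. Atp5l, the g subunit, was the lowest complex V gene at 10.9 to 12.2 FPKM.

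In the assembly group 10 of 13 genes were lower in Zscan4-positive than in Zscan4-negative cells, as were 7008 of all 13595 rows. The median of the group was -0.12, and none reached 1.5-fold. Sdhaf3, a complex II assembly factor, was at 21.2 FPKM in Zscan4-positive, 14.5 in Zscan4-negative, 14.9 in double-positive, 13.6 in single-positive and 14.5 in double-negative cells. Ndufaf7, a methyltransferase that modifies a complex I core subunit, was at 9.53 FPKM in Zscan4-positive, 13.5 in Zscan4-negative, 14.7 in double-positive, 14.3 in single-positive and 17.5 in double-negative cells. Ndufaf6, another complex I factor, was at 11.9 FPKM in Zscan4-positive, 15.9 in Zscan4-negative, 16.2 in double-positive, 13.4 in single-positive and 17.4 in double-negative cells. Sdhaf3 was highest and Ndufaf7 lowest in the Zscan4-positive fraction, at 0.52 and -0.46 in that sort. Sdhaf2, a complex II assembly factor, was at 10.4 FPKM in Zscan4-positive, 10.1 in Zscan4-negative, 9.88 in double-positive, 11.7 in single-positive and 12.4 in double-negative cells. Between double-positive and double-negative cells 6 of the 13 were higher (48.5% of all rows) and 7 lower.

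The mitochondrially encoded rows differed between fractions in other directions than the nuclear genes. The table has 10 rows on the mitochondrial chromosome, named here by their overlap with GENCODE M21 genes, and 8 reached 1 FPKM. These 8 include 2 pairs of rows over the same genes, so they are not 8 separate transcripts. The row over mt-Co1, the catalytic subunit of complex IV, was at 5572 FPKM in Zscan4-positive, 3780 in Zscan4-negative, 3799 in double-positive, 4291 in single-positive and 4990 in double-negative cells. For complex I, the mt-Nd2 row was at 1048 FPKM in Zscan4-positive, 950 in Zscan4-negative, 788 in double-positive, 965 in single-positive and 1201 in double-negative cells. The Zscan4-positive and double-negative fractions were the high ones in both. For mt-Nd2 the double-positive fraction was the lowest, and for mt-Co1 the Zscan4-negative fraction was the lowest, with double-positive cells close to it.

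All 8 rows were higher in Zscan4-positive than in Zscan4-negative cells (48.2% of all rows), with a median difference of 0.48 on the log2 scale. Only the 12S ribosomal RNA row (mt-Rnr1) passed 1.5-fold, as 7.61% of all rows did, at 262 FPKM in Zscan4-positive, against 173 in Zscan4-negative cells. Double-positive cells had lower values than double-negative cells in all 8 (6972 of all 13595 rows), with a median of -0.52 and 3 past 1.5-fold, beside 20.5% of all rows. Their sum over Zscan4-positive cells was 1.40 times that over Zscan4-negative cells, and over double-positive cells 0.728 times that over double-negative cells. These directions held under each scaling tried. The rows over mt-Co2 and over mt-Atp8, mt-Atp6 and mt-Co3 were under 1 FPKM in every fraction and were not read as levels.

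**Figure D5:**
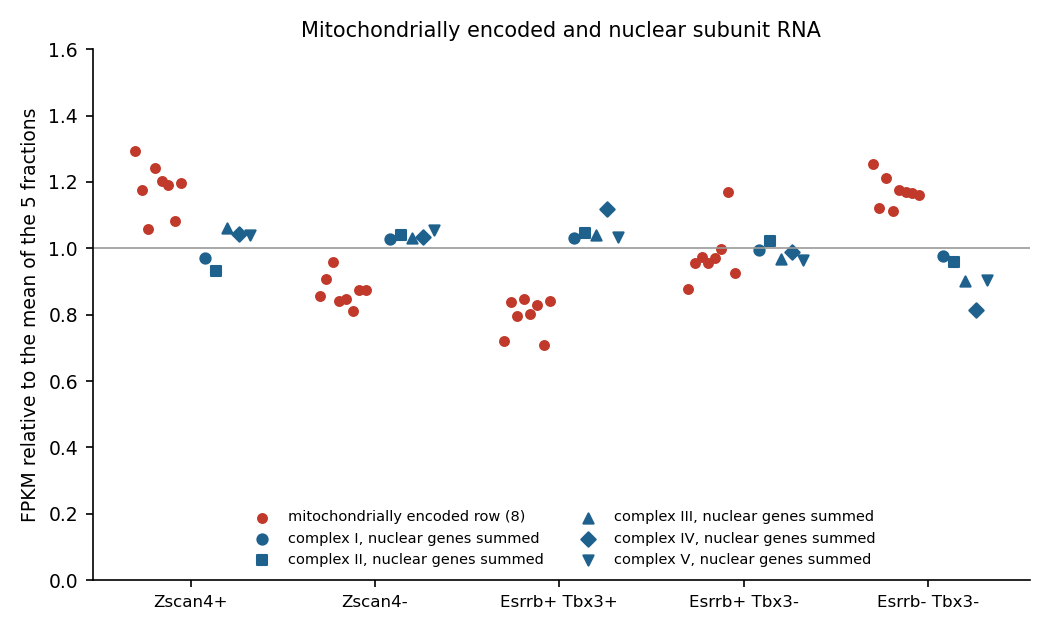
FPKM relative to the mean of the 5 fractions for the 8 mitochondrially encoded rows (red) and for the summed nuclear genes of each complex (blue). The red points are high in Zscan4-positive and double-negative cells, while the complex IV sum is lowest in double-negative cells (3398 FPKM, against 4674 FPKM in double-positive cells).

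Other genes of the pathway were described by lists. Among 10 of 12 transcriptional regulators that reached 1 FPKM, the median difference between double-positive and double-negative cells was 0.27. It was -0.02 over all rows and 0.19 over the rows that reached 50 FPKM. The 10 include Esrrb, on whose reporter the cells were sorted, so its difference of 2.46 follows from how the cells were chosen. Gabpa, an ETS factor of respiratory genes, was at 52.3 FPKM in Zscan4-positive, 49.1 in Zscan4-negative, 53.4 in double-positive, 48.2 in single-positive and 33.5 in double-negative cells (0.66), whereas Esrra lay between 11.1 and 13.4 FPKM. The mitochondrial RNA polymerase Polrmt was at 22.0 FPKM in double-positive and 14.6 in double-negative cells.

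The citric acid cycle list (12 of 13 genes) had a median of 0.11 with no gene past 1.5-fold, and the 74 mitochondrial ribosomal protein genes a median of 0.12. Other assembly factors (34 of 36) had a median of 0.00. In that list Sco1, a copper chaperone of complex IV, was 1.5-fold higher in double-positive cells (0.63), and Lyrm7, Tmem70 and Cox14 were 1.5-fold lower, beside 9.92% of all rows that were higher and 20.5% that were lower. Lyrm7 reached 1 FPKM only in single-positive and double-negative cells, so the filter kept it only through fractions where it was high. Cox14, which stabilises newly made Cox1, was at 263 FPKM in double-positive, 345 in single-positive and 402 in double-negative cells. Cytochrome c1 (Cyc1), a catalytic subunit of complex III outside the symbol rule, was at 193 FPKM in Zscan4-positive, 206 in Zscan4-negative, 197 in double-positive, 175 in single-positive and 166 in double-negative cells. Cytochrome c itself (Cycs), the electron carrier between complexes III and IV, was listed at 1.76 FPKM in Zscan4-positive cells and at 0.17 to 0.42 FPKM in the other 4 fractions, low values for a gene that respiring cells need. The filter kept Cycs only through the Zscan4-positive fraction, where it was high, and its pseudogene copies were not searched.

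Some of these genes have near-identical processed pseudogenes. Of the 79 structural subunits, 20 had at least 1 pseudogene transcript at 95% identity or more over 100 bases or more of coding sequence, and 59 had none. The median double-positive level was 97.4 FPKM with such a copy and 137 FPKM without. Atp5l had 8 copies, Atp5h and Uqcrb 3 each, and Ndufb4, a complex I gene at 4.24 to 5.68 FPKM, had 2. Atp5h was nonetheless at 165 FPKM in double-positive cells, and Cox5b, with no copy, at 25.9 FPKM. Levels of genes with a copy are uncertain, since shared reads can be split or dropped, and how the reads were assigned was not tested.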

How the data were processed

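RNA from 10 libraries (5 sorted fractions, 2 libraries each) was sequenced. The authors deposited 1 table of merged FPKM values per fraction, labelled as counts in its name but holding FPKM. Reads were handled, per the submitters' processing notes, with TopHat2 2.0.14, Cuffdiff 2.2.1, Cufflinks and bcl2fastq 1.8.4 on the mm10 build. Depth per library is not given in the sources used here, so no interval or floor is given. FPKM totals per column lay between 507495 and 552117.

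From these, differences of log2(FPKM + 1) were taken for 4 comparisons over all rows with at least 1 FPKM in a fraction, with no test, and called at 1.5-fold and 2-fold. The comparisons that share a fraction are not independent. Named genes are the 5 largest differences each way among members with at least 5 FPKM, any past 2-fold, the highest and lowest of each complex, core subunits and isoform groups. Members and lists were chosen with earlier results of these data known. Coding sequences were searched against 13523 GENCODE M21 pseudogene transcripts with BLAST 2.17.0. Calculations used Python 3.11.15 and pandas 2.3.3, and were tested on simulated data. Alternatives were the pseudocount, the FPKM filter, 3 scalings, summed duplicate symbols, structural subunits only and, added after the data were seen, leaving out Ndufs5 and 5 minor isoforms. The NRF1 motif was shortened by 1 letter after a first search with a longer form, which matched fewer promoters. The individual values of some genes are not reported here.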

Additional observations from a re-analysis of the deposited data

How the results depend on the processing

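No paired analysis was possible because the columns are merged over replicates and carry no replicate numbers, and leaving out a replicate could not be done for the same reason. Depth per library is unknown, and the small counts of called genes move easily. With a pseudocount of 0.1, 2 genes were 1.5-fold higher and 1 lower in the Zscan4 sort, and 2 were lower at the Esrrb step. With a filter of 5 FPKM, 0 genes were higher and 1 lower at the Tbx3 step, 1 was lower between double-positive and double-negative cells, and the complex IV median in double-positive cells was 178 FPKM. With equal FPKM totals, 0 genes were higher at the Tbx3 step, 29 genes had the order double-positive over single-positive over double-negative, and the double-positive against double-negative medians were 0.0027 for all genes, -0.0088 for complex I, 0.0054 for complex II, 0.0086 for complex III, 0.14 for complex IV and 0.053 for complex V. With totals equal outside the 501 rows of the shared profile, the higher count at the Tbx3 step was again 0, the ordered count was 22, and those medians were -0.021 for all genes, -0.032 for complex I, -0.018 for complex II, -0.015 for complex III, 0.12 for complex IV and 0.030 for complex V. These 2 scalings shift the median of all rows to -0.12 and -0.15, so by construction the differences of all genes shift with them. Without Ndufs5 and the minor isoforms Cox4i2, Cox6b2, Cox7a1, Cox7b2 and Ndufa4l2, a choice made after seeing the data, 0 genes were higher in the Zscan4 sort, 1 was higher and 0 were lower at the Esrrb step, 0 were higher and 0 lower at the Tbx3 step, and 3 were higher and 0 lower between double-positive and double-negative cells. Complex IV medians were then 338 FPKM in Zscan4-positive, 362 in Zscan4-negative, 381 in double-positive, 345 in single-positive and 289 in double-negative cells. Of 522 alternative values for the comparisons and levels, 487 stayed within 0.1 on the log2 scale or within 1.5 times, 30 moved beyond that and 5 moved beyond that with a change of sign. In all, 19 median differences changed sign, 14 of them by a move within 0.1. With equal FPKM totals these included the Tbx3 step medians of all genes (-0.0103), complex I (-0.0144), complex II (-0.0248), complex III (-0.0368) and complex V (-0.0158), and the Esrrb step median of complex I (-0.0250). Complex IV changed sign in the Zscan4 sort alone, to 0.0037 with no filter.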

Other observations

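A list of mitochondrial carriers, channels and related enzymes was chosen after the values of the subunit genes had been seen. Of its 19 genes, 18 reached 1 FPKM, and in the Zscan4 sort 3 were 1.5-fold higher and 1 lower, where 7.61% and 3.59% of all rows were. The higher ones are known from the testis. Slc25a31, the germ cell ADP/ATP carrier, was at 6.28 FPKM in Zscan4-positive cells, against 1.77 in Zscan4-negative cells. Pdha2, the testis form of the pyruvate dehydrogenase alpha subunit, was at 2.29 FPKM in Zscan4-positive, against 0.317 in Zscan4-negative cells, and Cyct, testis cytochrome c, at 10.2 FPKM against 6.19. Pdha2 reached 1 FPKM only in Zscan4-positive cells, so the filter counted it only through the fraction where it was high. Among the subunit genes, testis isoforms went both ways in this sort, Cox6b2 at 0.78 and Cox7b2 at -0.49. Pdk1, a kinase that inhibits pyruvate dehydrogenase, was lower, at 42.7 FPKM in Zscan4-positive, against 90.8 in Zscan4-negative cells.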
